A study of Mus musculus with 5 samples.

Results

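The genes described here are 33 genes of B cell receptor signalling and B cell identity, read in RNA of adherent peritoneal macrophages on 1-colour Agilent arrays. They were taken by name: each member is a gene symbol to which the transcript named for a non-control probe maps, and a gene is represented by its brightest probe. All 33 had a probe (40 probes in all) and all passed the filter on dim probes, among 27956 genes tested. Of these, 28 are called B cell restricted below, and 5 (Lyn, Syk, Btk, Plcg2 and Cd37) are known to be shared with macrophages. The arrays came from 3 wild-type mice (5, 11 and 14 in the sample titles) and 2 mice labelled c-JunΔLysM (1 and 9 in the titles). The latter, of genotype cJunfl/fl LysMCre-/+, are called c-Jun-deleted here. All mice were 8 weeks old, of either sex and on a 129/C57Bl6 background, and the wild-type mice were littermates. LysM-Cre is expressed from the lysozyme 2 gene, which is active in macrophages and granulocytes. The source names of the c-Jun-deleted samples instead give Mx, a Cre line that acts in many cell types. A table that the authors deposited also labels its c-Jun-deleted column with Mx. Which Cre line was used cannot be told from these labels. Peritoneal cells were plated overnight and non-adherent cells were removed before RNA isolation, so the labels describe macrophages and not B cells.

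B cells recognise antigen with a membrane immunoglobulin that signals through the chains encoded by Cd79a and Cd79b. The kinases Lyn, Blk and Syk phosphorylate these chains and the adaptor Blnk, which brings Btk to phospholipase C gamma 2 (Plcg2), and calcium release and transcription follow. Ebf1 and Pax5 establish and keep B cell identity. The peritoneal cavity holds many B cells beside its macrophages, and macrophages use Lyn, Syk, Btk and Plcg2 downstream of Fc receptors and other receptors.

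Values are log2 signals from which the 75th percentile of the same array was subtracted, so that 0 is the level of that percentile. A difference is the mean of the c-Jun-deleted arrays less the wild-type mean. Between 53.0% and 60.6% of non-control spots were well above background on an array, and none was saturated. The macrophage markers Adgre1, an adhesion receptor, and Csf1r, the CSF1 receptor, were well above background on all 5 arrays, at 6.68 to 7.64 and 6.16 to 6.79. Jun measured 3.21, 3.75 and 3.17 on the wild-type arrays against 2.76 and 2.71 on the c-Jun-deleted ones. Whether its probe lies inside the deleted stretch cannot be read from the files, so Jun does not check the genotype. Each of 2 slides carried both genotypes: c-Jun-deleted 1 shared slide 1 with wild-type 5, and the other 3 arrays were on slide 2.

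The first question was whether B cell genes differed between the genotypes. Of the 28 restricted members, 27 were higher on both c-Jun-deleted arrays than on every wild-type array, and the exception was Pik3ap1. Their median difference was 2.14, a 4.42-fold higher median, and the range ran from -0.29 for Pik3ap1 to 2.76 for Fcrla. The 5 shared members were also higher on average, but by a median of 0.26 (1.20-fold), and 4 of them did not overlap between the groups. Over all genes tested the median difference was -0.09, and 13.3% were higher without overlap while 20.2% were lower without overlap. Among the members, 25 were at least 2-fold higher, all of them restricted, against 4.78% of all genes. In a bulk sample, fewer cells of a type and less RNA per cell cannot be told apart, and the same holds for more of them.

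No member passed the test across all genes. With limma, 0 of 33 members and 0% of all genes had a Benjamini-Hochberg adjusted p below 0.05, and the members' adjusted p ran from 0.213 to 0.691. At an unadjusted p below 0.05 there were 27 members, all higher, where 5.62% of all genes were higher and 6.52% lower at that threshold. With 3 and 2 arrays, 0.1 is the smallest p that exact permutation of the labels allows. When arrays were centred on their median instead, 14 members passed the adjusted threshold, with 0.669% of all genes.

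**Figure D1:**
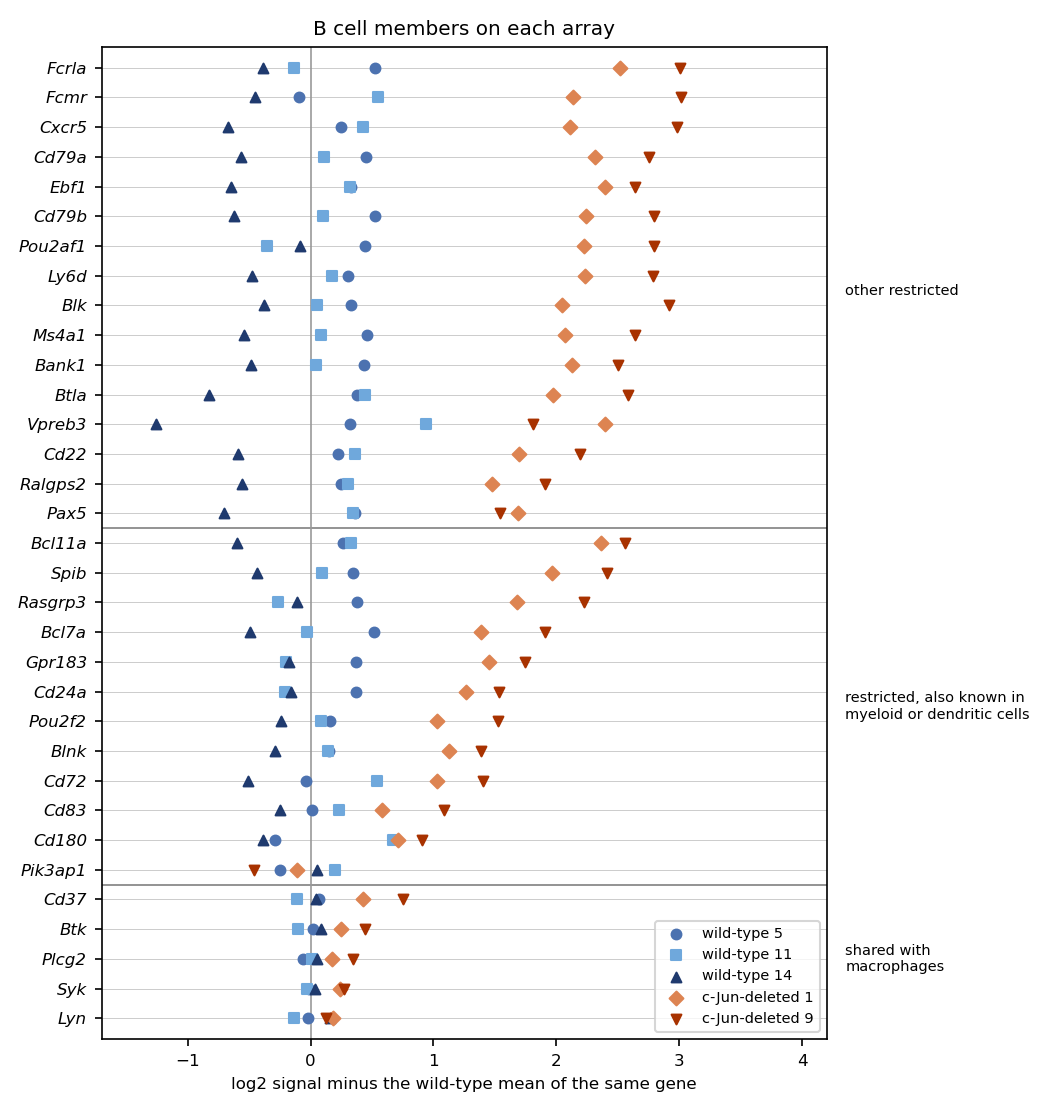
Each point is the log2 signal of a member on 1 array minus the wild-type mean of that gene, with 3 wild-type and 2 c-Jun-deleted arrays per row and members grouped by class. The c-Jun-deleted points lie to the right of all wild-type points for every restricted member except Pik3ap1, and close to them for the 5 shared members.

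The antigen receptor chains were among the members with large differences. Cd79a, which encodes the Ig-alpha chain, was at -0.89, -1.23 and -1.91 in wild-type 5, 11 and 14, and at 0.97 and 1.41 in c-Jun-deleted 1 and 9. Cd79b, which encodes its partner Ig-beta, measured 5.14, 4.72 and 4.00 on the wild-type arrays against 6.86 and 7.41 on the c-Jun-deleted ones. In both genes the lowest array was wild-type 14 and the highest c-Jun-deleted 9, and the groups were separated by 1.86 and 1.72. The chains differed by nearly the same amount, 5.80-fold for Cd79a (log2 difference 2.54, SE 0.36) and 5.72-fold for Cd79b (2.52, SE 0.40), each with a limma adjusted p of about 0.22.

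Of the surface molecules, those found mainly on B cells had differences close to those of the receptor chains. Ms4a1, which encodes CD20, measured 4.70, 4.32 and 3.69 on the wild-type arrays against 6.30 and 6.87 on the c-Jun-deleted ones, 5.11-fold higher. Fcmr, the Fc receptor for IgM, was at 2.97, 3.61 and 2.62 against 5.20 and 6.08, 5.96-fold higher. Ly6d, a surface protein that marks commitment to the B lineage, was at 3.65, 3.52 and 2.87 against 5.58 and 6.13, 5.69-fold higher. These 3 genes did not overlap between the groups and were highest on c-Jun-deleted 9. The inhibitory receptors were higher too, by less in part. Btla, which lymphocytes use to receive inhibitory signals, was 4.86-fold higher (2.28, SE 0.48). Cd22, a sialic acid-binding co-receptor that dampens receptor signalling, was at 1.13, 1.26 and 0.32 against 2.60 and 3.10, 3.85-fold higher. Cd72, another inhibitory co-receptor, was 2.32-fold higher (1.21, SE 0.35).

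Surface members known also in myeloid or dendritic cells had smaller differences. Cd24a, a glycosylphosphatidylinositol-anchored protein of many immature and lymphoid cells, was 2.63-fold higher (1.40, SE 0.24). Cd83, an activation marker of dendritic cells and B cells, measured 3.17, 3.40 and 2.92 on the wild-type arrays against 3.74 and 4.25 on the c-Jun-deleted ones, 1.78-fold higher. Cd180, a Toll-like receptor relative of B cells and macrophages, was at -1.51, -0.55 and -1.61 against -0.51 and -0.32. Its groups were separated by 0.04 because wild-type 11 lay almost at the level of c-Jun-deleted 1. Cd37, a tetraspanin of B cells and other leukocytes and 1 of the 5 shared members, was at 4.56, 4.38 and 4.54 against 4.92 and 5.25, 1.51-fold higher. A dimmer Cd37 probe differed by 0.42, beside 0.59 for the brightest one.

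The chemoattractant receptors were both higher. Cxcr5, which guides B cells into follicles, measured 1.16, 1.34 and 0.24 on the wild-type arrays against 3.02 and 3.89 on the c-Jun-deleted ones. That is 5.84-fold higher (2.55, SE 0.45). Gpr183, an oxysterol receptor that positions B cells and is also carried by dendritic cells and macrophages, was at -0.11, -0.68 and -0.66 against 0.97 and 1.26, 3.03-fold higher. Neither overlapped between the groups.

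The kinases and their effector split into Blk and the 4 others. Blk, a Src family kinase found mainly in B cells, measured -1.07, -1.34 and -1.77 on the wild-type arrays against 0.65 and 1.52 on the c-Jun-deleted ones, 5.58-fold higher (2.48, SE 0.35). Lyn, the Src family kinase that B cells and myeloid cells share, was at 1.68, 1.57 and 1.86 against 1.89 and 1.83, so the groups overlapped (0.16, SE 0.16, limma adjusted p = 0.691). The remaining 3 were separated between the groups, by small margins. Syk, which binds the phosphorylated receptor chains, was at 5.85, 5.83 and 5.90 against 6.10 and 6.13 (0.26, SE 0.13). Btk, the Tec family kinase whose loss causes a B cell deficiency, was at 3.95, 3.84 and 4.02 against 4.19 and 4.38 (0.35, SE 0.15). Plcg2, the phospholipase that they activate, was at 5.08, 5.15 and 5.20 against 5.31 and 5.49 (0.26, SE 0.14). The wild-type spread of Syk, Plcg2 and Btk was 0.03, 0.06 and 0.09 (SD, n = 3), so that small shifts separated the arrays.

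The adaptors and exchange factors covered the widest span. Bank1, a scaffold of B cells that links Lyn to calcium release, measured 1.65, 1.26 and 0.74 on the wild-type arrays against 3.34 and 3.72 on the c-Jun-deleted ones, 4.97-fold higher. Rasgrp3, which activates Ras downstream of phospholipase C, was at 0.22, -0.42 and -0.27 against 1.53 and 2.07, 3.87-fold higher. Ralgps2, an exchange factor for Ral, was 3.22-fold higher (1.69, SE 0.34). Those 3 did not overlap between the groups. Blnk, the adaptor that joins Syk to Btk and Plcg2, was at 5.31, 5.31 and 4.87 against 6.29 and 6.55, 2.39-fold higher (1.26, SE 0.21). Pik3ap1, which encodes the phosphoinositide 3-kinase adaptor BCAP of B cells and macrophages, was the member that did not follow. It measured -0.15, 0.30 and 0.15 on the wild-type arrays against -0.01 and -0.36 on the c-Jun-deleted ones. Its groups therefore overlapped (-0.29, SE 0.21, limma adjusted p = 0.598). Its difference was 0.14 within slide 1 and -0.58 within slide 2.

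All 7 transcription and chromatin factors were higher on both c-Jun-deleted arrays. Ebf1, the early B cell factor, measured -0.74, -0.75 and -1.72 on the wild-type arrays against 1.33 and 1.57 on the c-Jun-deleted ones, 5.73-fold higher (2.52, SE 0.36). Pou2af1, the coactivator of octamer-binding factors in B cells, was at 2.85, 2.06 and 2.33 against 4.64 and 5.21, 5.70-fold higher. Bcl11a, a zinc finger factor needed for B lymphopoiesis, was at 0.76, 0.83 and -0.10 against 2.86 and 3.05, 5.49-fold higher. Their groups stood 2.07, 1.78 and 2.03 apart. Spib, an Ets factor of B cells and plasmacytoid dendritic cells, was at 3.10, 2.84 and 2.31 against 4.72 and 5.16, 4.55-fold higher. Pou2f2, the octamer factor Oct-2, was 2.43-fold higher (1.28, SE 0.23), and its second probe gave 1.29. Bcl7a, a subunit of a chromatin remodelling complex, was 3.13-fold higher (1.65, SE 0.36, and 1.00 with normexp background correction).

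Pax5, the factor that keeps B cell identity, was measured near background. It was at -3.99, -4.02 and -5.07 in wild-type, where wild-type 14 was not well above background, and at -2.67 and -2.82 in c-Jun-deleted samples. The difference was 1.61 (SE 0.39) and the groups did not overlap. With normexp it was 0.60. A second Pax5 probe cleared the background on 1 wild-type array, differed by 0.77 and overlapped between the groups, so the size of the Pax5 difference is uncertain. In the other 6 members with several probes, the probes of a gene differed by at most 0.17.

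Fcrla, an intracellular Fc receptor-like protein of B cells, had the largest difference of the members. It measured 2.28, 1.63 and 1.37 on the wild-type arrays against 4.28 and 4.77 on the c-Jun-deleted ones. That is 6.78-fold higher (2.76, SE 0.34, limma adjusted p = 0.213). Vpreb3, a protein that assists surrogate and immunoglobulin light chains in immature B cells, was at -0.02, 0.60 and -1.60 against 2.05 and 1.47. It was 4.29-fold higher with the largest SE of the members (2.10, SE 0.70), and its wild-type arrays ran from -1.60 to 0.60. Without wild-type 14 the Vpreb3 difference was 1.47.

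Because most members shared a direction, the promoters of those with a known B cell motif are shown. RefSeq windows of GRCm38.p6, from 250 bases before to 50 after a transcript start, were matched by symbol for 24 of 33 members (29 windows). The motifs searched on both strands were the octamer ATGCAAAT bound by Oct-2 and Pou2af1, a pair of EBF1 half-sites CCCNNGGG, which reads the same on both strands, and GAGGAAGT, a site of the type bound by PU.1 and SpiB. The octamer was in 2 of 29 member windows (6.90%) and in 1.74% of all 32851 windows. The EBF1 pair was in 3 member windows (10.3%, and 13.7% of all), and the PU.1 type in 4 (13.8%, and 3.20% of all). With so few windows these shares are a description. Of the members with a match, 2 with the octamer, 2 with the EBF1 pair and the shared member Cd37 with the PU.1 type are printed 5′ to 3′ on the gene's strand, from 150 bases before the start to 50 after it, with the motif in capitals. In Spib the capitals cover 2 overlapping matches.

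Vpreb3 (GRCm38.p6, chr10:75948150-75948349, plus strand): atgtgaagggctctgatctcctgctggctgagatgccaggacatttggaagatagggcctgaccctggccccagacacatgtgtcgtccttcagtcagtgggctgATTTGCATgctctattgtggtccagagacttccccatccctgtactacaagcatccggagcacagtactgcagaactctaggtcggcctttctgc

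Blnk (GRCm38.p6, chr19:40994172-40994371, minus strand): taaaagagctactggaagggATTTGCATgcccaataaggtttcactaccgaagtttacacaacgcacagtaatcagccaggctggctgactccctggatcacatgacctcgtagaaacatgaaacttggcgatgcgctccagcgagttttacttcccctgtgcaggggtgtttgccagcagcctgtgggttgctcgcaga

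Cd22 (GRCm38.p6, chr7:30878979-30879178, minus strand): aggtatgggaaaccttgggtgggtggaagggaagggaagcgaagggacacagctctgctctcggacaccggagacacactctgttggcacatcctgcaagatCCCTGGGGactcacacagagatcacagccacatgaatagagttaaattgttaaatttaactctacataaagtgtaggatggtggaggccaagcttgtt

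Spib (GRCm38.p6, chr7:44532022-44532221, minus strand): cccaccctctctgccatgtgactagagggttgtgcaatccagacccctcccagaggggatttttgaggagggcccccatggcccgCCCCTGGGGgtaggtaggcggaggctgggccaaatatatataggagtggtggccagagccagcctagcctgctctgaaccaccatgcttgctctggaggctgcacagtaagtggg

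Cd37 (GRCm38.p6, chr7:45238790-45238989, minus strand): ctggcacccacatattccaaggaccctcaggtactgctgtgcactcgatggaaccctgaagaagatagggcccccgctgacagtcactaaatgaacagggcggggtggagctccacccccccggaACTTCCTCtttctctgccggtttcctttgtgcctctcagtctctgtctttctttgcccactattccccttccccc

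Positions are those of the first base of a match, with the base before the start as -1. The octamer is at -45 in Vpreb3 and at -130 in Blnk. The differences of these genes, 2.10 and 1.26, were both below the median of the restricted members. The EBF1 pair is at -48 in Cd22, at -65 and -64 in Spib and at -21 in Bank1. The PU.1 type is at -25 in Cd37, -18 in Btla, -49 in Cd72 and -50 in Rasgrp3. No motif match was found in the windows of Cd79a, Ebf1 and Pax5 among others, which says only that these letters are not in those windows.

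Members were then compared with each other across the arrays. Relative to the wild-type mean, the median of the 28 restricted members was 0.33, 0.16 and -0.48 on wild-type 5, 11 and 14, and 1.97 and 2.32 on c-Jun-deleted 1 and 9. Wild-type 14 was the lowest wild-type array for 23 of the 28, and c-Jun-deleted 9 the highest of all arrays for 25. The shared members lay at -0.01, -0.10, 0.05, 0.24 and 0.35 in the same order of arrays, so among them wild-type 14 was not the low array. The highest wild-type array was wild-type 5 for 17 of the restricted members and wild-type 11 for 11.

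The restricted members were split further by a list of 12 that are also known in myeloid or dendritic cells. The other 16 had differences from 1.61 to 2.76 with a median of 2.49 (5.63-fold). The 12 had a median of 1.34 (2.53-fold), from -0.29 for Pik3ap1 to 2.46 for Bcl11a, so the classes overlap. Each member was also set against the median of the 16, itself left out, on every array. The SD of that log2 ratio over the 5 arrays was smallest for Ly6d (0.12), Ms4a1 (0.14), Bcl11a (0.15) and Cd79a (0.15), beside SDs of their own levels of 1.42, 1.35, 1.40 and 1.44. Spib (0.16), Ebf1 (0.17), Cd79b (0.17) and Bank1 (0.18) came next, so these 8 genes kept nearly the same ratio to the B cell genes of the list on all arrays. The SD had a median of 0.21 in the 16, 0.64 in the 12 and 1.25 in the 5 shared members. It spans both genotypes and the 16 supply the reference. It therefore largely restates the genotype differences above and is no separate evidence that members vary together.

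**Figure D2:**
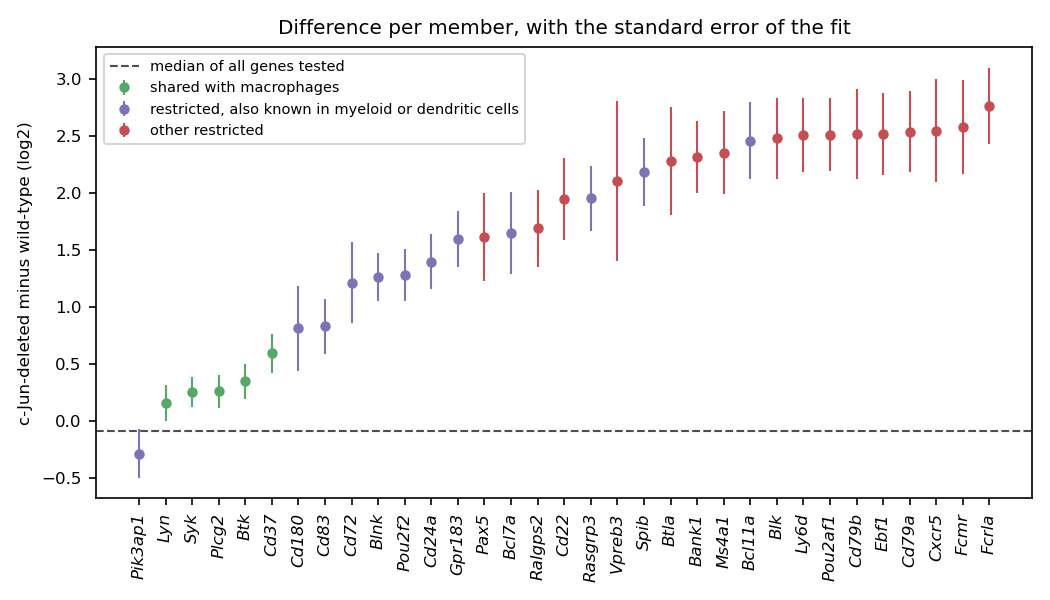
Points are the fitted difference of each member (c-Jun-deleted minus wild-type, log2), with bars of 1 standard error from limma on 3 and 2 arrays, coloured by class, and the dashed line is the median of all genes tested. The shared members lie between 0.16 and 0.59, and the 16 restricted members outside the myeloid and dendritic list lie from 1.61 upwards.

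Other genes of the receptor pathway were taken from a list of 66, of which 64 were measured (Ighm and Ighd had no probe matched by transcript). Their median difference was 0.02, with 34 higher and 30 lower, and 0 had an adjusted p below 0.05 in limma. At an unadjusted limma p below 0.05 there were 14 higher and 1 lower, where 5.62% and 6.52% of all genes were. Without overlap 19 were higher and 9 lower, where 13.3% and 20.2% of all genes were. The median difference over all genes was -0.09. Itpr3, a calcium release channel, was at 2.12, 2.37 and 1.49 against 3.61 and 4.05 (1.83, SE 0.32). Its lowest value was on wild-type 14 and its highest on c-Jun-deleted 9, as for most restricted members.

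Other B cell identity genes were measured for 30 of 32. Of these 27 were higher, 22 of them without overlap, and 1 was lower without overlap, where 13.3% and 20.2% of all genes were. The median difference was 1.07 and 0 passed limma's adjusted threshold. At an unadjusted limma p below 0.05, 18 were higher and 0 lower, where 5.62% and 6.52% of all genes were. Aff3, a nuclear factor of lymphoid cells, was at -2.65, -2.74 and -3.27 against -0.71 and -0.39 (2.34, SE 0.25). Tnfrsf13c, the BAFF receptor, was 2.09 higher (SE 0.25). Cr2, the complement receptor CD21, was at -0.09, 0.63 and -1.27 against 1.32 and 1.37 (1.59, SE 0.58). These 3 genes were higher on both c-Jun-deleted arrays than on any wild-type array.

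Markers of other B lineage stages had smaller medians. Of the precursor genes, Rag1, Rag2, Igll1 and Erg did not pass the filter on dim probes. The 6 others had a median of 0.47 with 2 of them higher without overlap, where 13.3% of all genes were. Cd93 (1.21), Myb (0.82) and Il7r (0.63) came first by p, and Cd93 is also carried by macrophages. Of 8 plasma cell genes, 4 were higher and 4 lower. Mzb1, an endoplasmic reticulum protein of plasma cells and innate-like B cells, was at 2.59, 1.86 and 2.04 against 4.08 and 4.82 (2.29, SE 0.34). Derl3 (1.22) and Irf4 (1.19) were higher without overlap. Sdc1, the plasma cell marker CD138 that other cells carry too, was lower, at 0.85, 1.55 and 1.84 against -0.06 and -1.32 (-2.11, SE 0.49). Xbp1 was at -0.23 (SE 0.28) with overlap. No gene of these lists passed the adjusted threshold in limma.

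Markers of further cell types were read beside the members on the same arrays. Of all 27956 genes tested, 10798 were higher and 17158 lower, with 13.3% higher and 20.2% lower without overlap. T cell markers were higher for 14 of 17 genes with a median of 0.80. But without overlap only 1 of them, Cd2, was higher (2.16, SE 0.35), and 1 gene was lower. Mouse B cells carry Cd2 as well. The median of that list was -0.61, 1.45 and -0.70 on wild-type 5, 11 and 14 and 0.42 and 1.04 on the c-Jun-deleted arrays, so it was highest on wild-type 11. Cd3d was at -0.12, 2.37 and 0.02 against 1.29 and 1.86, and Cd3e at 0.67, 2.46 and 0.71 against 1.32 and 1.81. NK cell markers had 0 of 9 higher and 1 lower without overlap and were also highest on wild-type 11 (1.64). Plasmacytoid dendritic cell markers were higher for 2 of 8, with a median of -0.24. Without overlap 2 were higher and 1 was lower. Siglech, which defines these cells but is also found on some macrophages, measured 6.98 to 7.16 on the 5 arrays and did not separate the groups, and Ccr9 was 1.93 higher. Among macrophage markers 12 of 18 were lower, 7 without overlap, with a median of -0.44. By sign alone, the share of lower markers was near that of all genes. Without overlap, the 7 lower markers were a larger share than the 20.2% of all genes, and 3 markers were higher. Of the 18, 4 were lower and 0 higher at an unadjusted limma p below 0.05, against 6.52% and 5.62% of all genes. The marker median was also below the all-gene value of -0.09, but 0 markers passed the adjusted threshold. Csf1r was at -0.40 and C1qb, a complement gene, at -0.48, and Adgre1 at 0.16 with overlap.

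The globins were higher on the same arrays as the B cell genes. Of the erythroid list, 7 of 12 genes were measured. All 5 globins among them were higher without overlap (13.3% of all genes). The 2 other genes, Slc4a1 and Car1, named after their values were seen, were lower without overlap. Hbb-b1 was well above background on 0 wild-type arrays and Hbb-bt on 1, against 2 c-Jun-deleted arrays each. These 2 genes passed the filter only through the c-Jun-deleted arrays, so their separation carries no weight. The median of all 5 globins, these 2 included, was 4.28, and 2.38 with normexp. For the 2 alpha globins, Hba-a1 and Hba-a2, which were well above background on all 5 arrays, it was 4.21, and 3.60 with normexp. Hba-a1 measured -2.11, -2.73 and -3.82 on the wild-type arrays against 0.86 and 1.93 on the c-Jun-deleted ones (4.28, SE 0.61). Hba-a2 was at 0.04, -0.47 and -1.32 against 3.00 and 4.12 (4.14, SE 0.54, limma adjusted p = 0.215). The order of the 5 arrays in both was that of Cd79a. Not all restricted members shared it, since wild-type 11 was the highest wild-type array for 11 of the 28. Mesothelial and stromal markers were lower for 9 of 9, 4 of them without overlap (20.2% of all genes), with a median of -0.99. Mast cell markers were higher for 7 of 7 and 0 without overlap. Neutrophil and eosinophil markers were higher for 2 of 7, with 0 higher and 1 lower without overlap. Conventional dendritic cell markers were higher for 5 of 7, but without overlap 1 was higher and 2 were lower. The part of any of these cell types in the members' differences was not tested.

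The difference was present on both slides. For the restricted members the median was 1.60 within slide 1 and 2.50 within slide 2, and 2.09 with the slide as a block. For the shared members it was 0.24, 0.32 and 0.28 in the same order. Within slide 1 Cd79a, Cd79b and Ms4a1 differed by 1.86, 1.72 and 1.61, and within slide 2 by 2.98, 3.05 and 2.87. Slide 1 compares 1 array with 1 array and gives no test.

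The authors' deposited table lists 1709 probes, and every one differs between its 2 columns by at least 1.00 in log2. It holds 29 of the 40 member probes, for 25 restricted members and 0 shared ones, with column differences from 1.21 to 2.76. All 29 lay within 0.001 of the difference computed here. Cd83, Cd180 and Pik3ap1 were the restricted members without a probe there, and their differences here, 0.83, 0.81 and -0.29, do not reach that size.

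**Figure D3:**
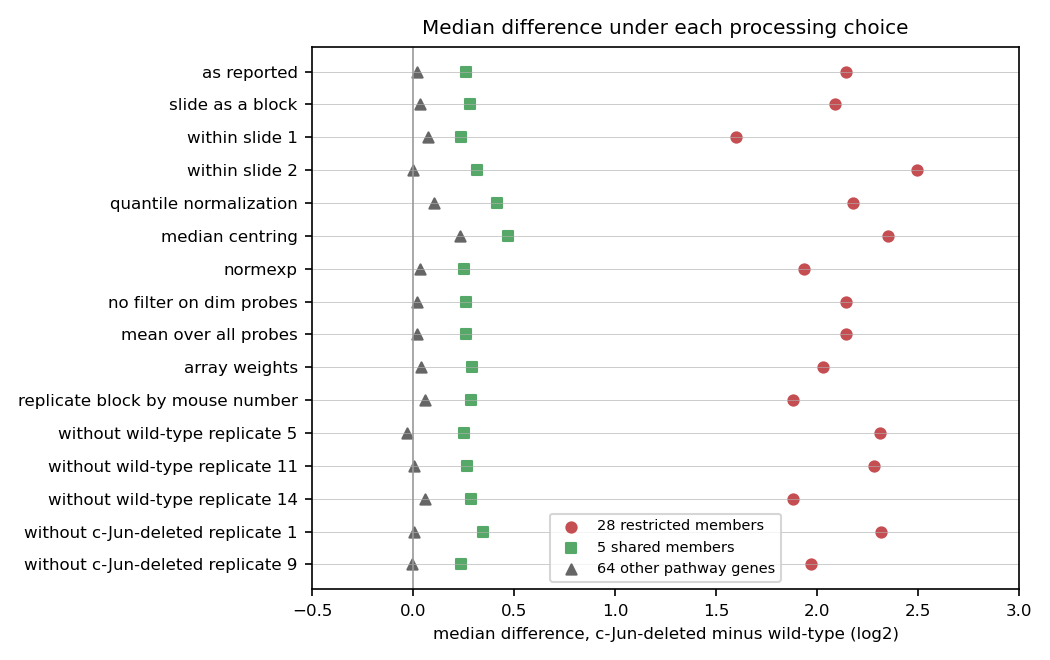
Points are the median difference (c-Jun-deleted minus wild-type, log2) of 28 restricted members, 5 shared members and 64 other pathway genes under each processing choice or with 1 array left out. The restricted members stay between 1.60 and 2.50, the shared members between 0.24 and 0.47, and the other pathway genes between -0.03 and 0.23.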

How the data were processed

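RNA of 3 wild-type and 2 c-Jun-deleted samples was measured on Agilent 1-colour arrays. Groups come from the sample titles. The source names number the mice, so samples were taken as separate animals; were they not, the p-values would reflect technical spread alone. Per the file headers, the authors extracted spot intensity values with Feature Extraction 11.5.1.1, background-subtracted and not scaled between arrays, and also deposited other values per spot, flags of 0 or 1 that served as filters. A further table that the authors deposited gives 1 log2 value per group and, going by its name, a shift by the 75th percentile. It labels the c-Jun-deleted group with Mx and not LysM. Its columns have medians of 0.54 and 1.19; what was subtracted from each probe is unknown, so only column differences were used. The table's header lists 4 wild-type arrays, and 1 of them was not analysed here. Even so, 1703 of its 1709 probes lay within 0.001 of the difference computed here. The match is therefore no independent check of the values.

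Control spots and outlier-flagged spots were left out, spots of a probe were averaged, and a probe was kept if 2 or more of the 5 arrays had it well above background (32830 probes, 27956 genes). Probes were named by transcript accession through RefSeq GRCm38.p6 (28026 of 55681 probes), without coordinates because the arrays were designed on mm9. The genotype difference was fitted with lmFit and eBayes of limma 3.58.1 (R 4.3.3) without covariates, p-values are 2-sided and Benjamini-Hochberg adjusted over all genes tested, and the fit was tested on simulated data. Members and gene lists were chosen with earlier results of these data known. All members are named; of each other list, the 3 genes with the smallest p and, for cell type lists, the first 2 listed that were measured are eligible to be named. Some of these genes are not reported here. Alternatives were the slide as a block or each slide alone, quantile normalization, median centring, normexp with an offset of 50, no filter, the mean over probes, array weights, and each array left out; the mouse number as a block was added after seeing the data. Normexp used the median spot signal, the raw signal these files give. The number of arrays limits the precision.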

Additional observations from a re-analysis of the deposited data

How the results depend on the processing

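Medians of the restricted and shared members kept their sign under every alternative run. Median centring shifted all genes (median 0.12, against -0.09) and gave 187 genes and 14 members with an adjusted p below 0.05; array weights gave 1 gene, Nkx6-3, which is no member, and 0 members. The restricted median moved to 1.60 within slide 1 and was 1.88 to 2.32 with each array left out. The shared median moved to 0.42 with quantile normalization and 0.47 with median centring, and was 0.24 to 0.35 with each array left out. The median of the other pathway genes moved to 0.073 within slide 1, 0.10 with quantile normalization and 0.23 with median centring, and was -0.031 (without wild-type 5) to 0.057 (without wild-type 14) with an array left out, so it has no steady sign. Of 495 single-member values, 14 gained a call, all with median centring, and 1 reversed, Pik3ap1 within slide 1 (0.14). The cause of these changes was not tested.

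The titles give no number to both genotypes, but the source names number mice 1 and 2 in each. Deviations from the group means over all genes correlated at -0.07 for number 1 and 0.19 for number 2. The deviations of the 2 c-Jun-deleted arrays mirror each other, so these correlations cannot show whether samples share more than a number. With that number as a replicate block, chosen after seeing the data, 0 genes and 0 members passed, and the restricted and shared medians were 1.88 and 0.29. With 3 and 2 arrays, and Pax5 near background, small differences stay uncertain.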
